A study of Mus musculus with 6 samples.

Results

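The genes described here are the ligands of the epidermal growth factor receptor (EGFR) Areg, Ereg, Hbegf, Btc and Tgfa, the receptor gene Egfr itself and Errfi1, whose product inhibits the receptor. These 7 genes were found among the 55335 rows of the count table by matching Ensembl identifiers, without their version, to GENCODE M21 symbols. The family was picked by the size of the response of Areg, which had the largest fitted log2 fold change between LPS and PBS. Every value of that contrast for the 7 genes is therefore given as a description, and no p-value is given for them. Of the 7, 5 had enough counts to pass the filter on low counts, and Btc and Tgfa did not.

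Bone marrow-derived macrophages (BMDMs) were grown for 6 d from femur and tibia marrow of C57BL/6 mice in medium with L929-conditioned supernatant, which supplies macrophage colony-stimulating factor. The mice of the study were male and 7 to 10 weeks old, and the labels mark these libraries as wild type, without a deletion or transgene in either group. Total RNA was sequenced from 3 libraries of cells given PBS and 3 of cells given LPS, a component of the outer membrane of Gram-negative bacteria, all collected after 1 h. The LPS dose for these cultures is not given in the sources used here, and the labels give each replicate number of both groups 1 shared batch number. The labels do not say whether the replicates were separate animals, so p-values measure the spread between these samples, which may be technical.

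Library totals lay between 37787611 and 41516330 counts. A count of 0 in a library allows up to 3 counts, which corresponded to between 0.0630 and 0.0919 normalized CPM, and such limits cover counting error only. Normalized CPM are counts divided by the library size after scaling with edgeR's TMM factors, whose mean was 1.15 in PBS and 0.869 in LPS libraries. Over the 15687 tested genes the log2 fold change had a median of -0.01 with this scaling and -0.42 with library size alone. Under the second scaling the log2 fold changes of Ereg, Hbegf, Egfr and Errfi1 were lower by about the difference of these medians, and that of Areg was 15.26 in place of 15.48. The macrophage markers Csf1r, Adgre1 and Lyz2 had 3263, 2329 and 23270 normalized CPM in PBS libraries and 4163, 2671 and 24220 in LPS libraries.

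EGFR ligands are made as precursors anchored in the cell membrane and are released by metalloproteases of the ADAM family, chiefly ADAM17, which also releases TNF. A freed or membrane-bound ligand binds EGFR, which dimerizes and signals through Ras and MAP kinases, phosphatidylinositol 3-kinase and STAT proteins. Errfi1, also called Mig-6, is an early transcript of this signalling, and its protein binds the kinase domain of the receptor and blocks it. In macrophages, amphiregulin and HB-EGF are known as factors that act on neighbouring epithelial and stromal cells during tissue repair.

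After 1 h with LPS, the transcripts of 3 ligands and of the inhibitor stood far above their level in PBS cells, while the receptor differed little and Btc and Tgfa stayed at or near 0. In bulk RNA, fewer cells that express a gene and less of its RNA per cell cannot be told apart. As a description of the values that the choice rested on, 4 of the 5 genes that passed the filter lay past the thresholds applied to all genes (0.05 for the adjusted p, 1 for the log2 fold change), all 4 of them upward. Areg and Ereg passed the filter through the LPS libraries alone and could only be called upward. Over all 15687 tested genes, 10.5% rose and 10.4% fell past both thresholds, and since the contrast chose the family nothing is read from this comparison. With scaling by library size alone, 1213 genes rose and 2964 fell, against 1653 and 1624 with TMM.

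**Figure D1:**
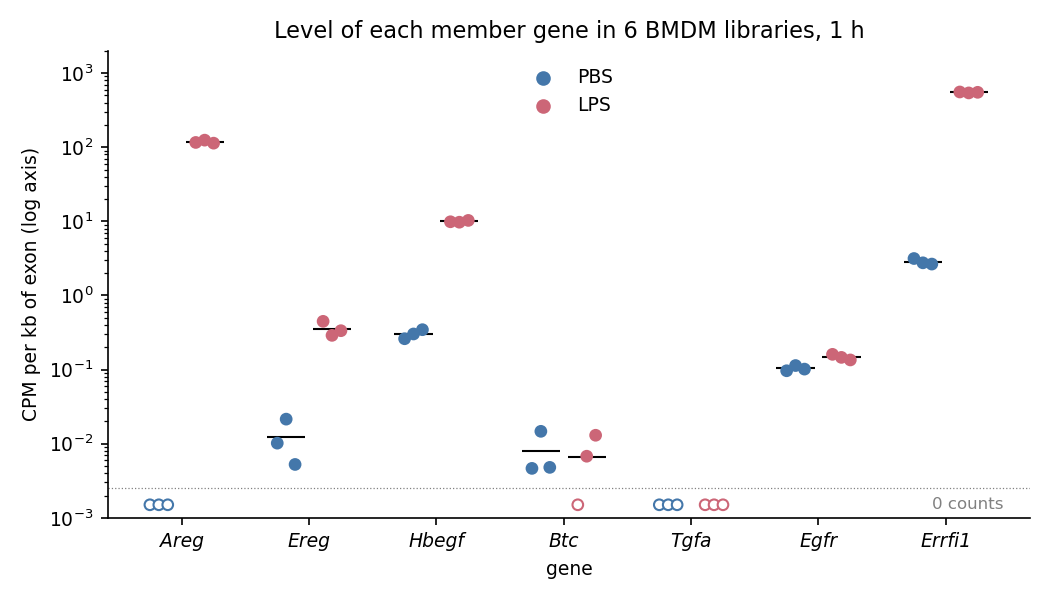
Level of the 7 genes in each of the 6 libraries, in normalized CPM per kb of merged exon on a log axis, with blue points for PBS, red points for LPS, a black line at the mean of 3 libraries and open points on the lowest row for libraries with 0 counts. Areg had 0 counts in each PBS library and between 113.3 and 124.4 CPM per kb in LPS libraries, Errfi1 was the highest of the 7 in both groups, the points of Btc stayed at or under 0.0147 in both groups, and all 6 of Tgfa were at 0 counts.

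Areg encodes amphiregulin, a ligand of EGFR. Areg (ENSMUSG00000029378.5, chr5:91139599-91148432 in GRCm38, plus strand, 6 exons) had 0, 0 and 0 counts in PBS replicates 1, 2 and 3 and 4724, 4935 and 4686 counts in LPS replicates 1, 2 and 3. The 3 LPS libraries thus lay close together, and no read was counted in any of the PBS libraries. The level in LPS libraries was 143.2 ± 7.08 normalized CPM (SD, n = 3), at least 2157-fold higher than the highest limit of 3 counts in a PBS library. The fitted log2 fold change of 15.48 (standard error 0.15) depends on how the fit treats counts of 0 and is no bound. By this fitted value it stood first among all tested genes, before Sele (14.15), an adhesion molecule of activated endothelium, and Csf3 (12.68), the granulocyte colony-stimulating factor, which also had 0 counts in every PBS library. The order depends on the measure, since the level of Sele in LPS libraries was 2827-fold the same limit, above the 2157-fold of Areg. By the fitted value Areg was first in 13 of the 14 alternative fits that kept it and came second to Sele without PBS replicate 1. Within batches 1, 2 and 3 its log2 difference, with 2 added to each count, was 11.71, 11.74 and 11.63. By that measure Il1b (11.77, 11.75 and 11.70) stood above Areg in every batch. Sele and Ptgs2 did so in batches 2 and 3, and Csf3 and Il6 in none. Per length, Areg stood above 97.4% of the tested genes in LPS libraries.

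The sequence just before the start of Areg is shown together with that of Errfi1, because both hold the full cAMP response element (CRE, TGACGTCA, searched on both strands) followed by a TATA box (TATAAA, searched on the strand of the gene). Each line gives the 100 bases before the RefSeq start on GRCm38.p6, 5′ to 3′ on the plus strand, with the CRE and the TATA box in capitals. The stretches are chr5:91139499-91139598 for Areg and chr4:150854970-150855069 for the downstream start of Errfi1.
Areg: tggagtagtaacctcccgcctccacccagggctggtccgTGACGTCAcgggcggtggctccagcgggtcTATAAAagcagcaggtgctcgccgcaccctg
Errfi1: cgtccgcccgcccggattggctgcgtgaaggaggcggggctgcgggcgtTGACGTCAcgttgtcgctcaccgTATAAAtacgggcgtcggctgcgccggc

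The CRE began 61 bases before the start of Areg and 51 bases before that of Errfi1, and the TATA box began 31 and 28 bases before them. Of 32851 RefSeq windows that run from 250 bases before to 50 bases after a start, 1.79% held the CRE, 8.32% the TATA box and 0.11% both. Neither window held the AP-1 motif (TGANTCA), the NF-kB consensus or the CArG box bound by SRF, which were found in 7.81%, 8.46% and 1.63% of windows. Windows were found for 5 of the 7 genes, and those of Btc, Egfr and the upstream start of Errfi1 held none of these motifs, while that of Tgfa held the NF-kB consensus. Among tested genes with a window, 8.9% of those with the CRE rose past both thresholds, against 9.1% of all. The share was 16.2% with the TATA box, 16.5% with the AP-1 motif, 13.6% with the NF-kB consensus and 11.5% with the CArG box. Of the 18 other tested genes with both the CRE and the TATA box, 4 (22.2%) rose. The motifs were chosen with these sequences in view, and a match of letters is a description, not a bound site.

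Ereg encodes epiregulin, a ligand of EGFR and ErbB4, and starts at -65.0 kb from the start of Areg on the same strand (ENSMUSG00000029377.5, chr5:91074622-91093646, 5 exons). It had 2, 4 and 1 counts in PBS and 62, 39 and 47 counts in LPS libraries. Every LPS library was above every PBS library, and the LPS libraries were less alike than those of the other induced genes. The ratio of the summed normalized counts was 29.3 with an exact 95% interval from 13.9 to 74.2 that covers counting error only. The log2 fold change was 4.79 (standard error 0.39). Within batches it was 4.50, 3.24 and 4.47. Without 1 library at a time it ranged from 4.44 to 5.39, and the highest value came without PBS replicate 2. Per kb of exon, Areg exceeded Ereg 258.9-fold, 429.9-fold and 338.7-fold in the 3 LPS libraries, so that these adjacent genes differed far more in level than the libraries did among themselves. The start of Ereg overlaps the antisense gene Gm19610, which had 1 count in PBS replicate 2 and 0 in the other libraries.

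Hbegf encodes heparin-binding EGF-like growth factor, a ligand of EGFR and ErbB4 whose precursor is also the receptor of diphtheria toxin in humans. Hbegf (ENSMUSG00000024486.6, chr18:36504927-36515805, minus strand, 6 exons) had 60, 66 and 77 counts in PBS and 1600, 1535 and 1692 counts in LPS libraries. The groups were far apart, and unlike Areg and Ereg the gene was already measurable in every PBS library. Its level was 1.46 ± 0.204 normalized CPM in PBS and 48.1 ± 1.40 in LPS libraries (SD, n = 3 each), 32.9-fold higher. The log2 fold change was 5.04 (standard error 0.08), and within batches 1, 2 and 3 it was 5.20, 4.97 and 4.86 (log2 of normalized counts with 2 added). Per kb of merged exon, Areg exceeded Hbegf by between 11.0-fold and 12.8-fold in LPS libraries. The difference was smaller with the length of the longest coding transcript, at 117.9 (Areg) and 20.3 (Hbegf) CPM per kb.

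Btc, which encodes betacellulin, had 1, 3 and 1 counts in PBS and 0, 1 and 2 counts in LPS libraries. The groups overlapped, every library was at or under 3 counts, and no fold is given. Tgfa, which encodes transforming growth factor alpha, had 0 counts in each of the 6 libraries, which allows up to 0.0919 normalized CPM in the library with the highest limit. Btc lies on chr5:91357261-91402994 (minus strand) and Tgfa on chr6:86195223-86275719 (plus strand). At this depth a difference in either gene was not detectable.

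The receptor gene Egfr (ENSMUSG00000020122.16, chr11:16752203-16918158, plus strand, 28 exons) was low in both groups. It had 52, 58 and 53 counts in PBS and 61, 54 and 52 counts in LPS libraries. The raw counts overlapped, whereas the normalized levels, 1.18 ± 0.0985 CPM in PBS and 1.67 ± 0.145 CPM in LPS libraries (SD, n = 3 each), did not. The log2 fold change was 0.50 (standard error 0.17), and it was 0.10 with scaling by library size alone, so its size rests on the scaling. Within batches it was 0.73, 0.37 and 0.41. Per length, 5.55% of tested genes were lower than Egfr in PBS and 8.02% in LPS libraries.

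Errfi1, the inhibitor of the receptor kinase, had the highest level of the 7 genes in both groups. Errfi1 (ENSMUSG00000028967.10, chr4:150853919-150868892, plus strand, 4 exons) had 537, 446 and 438 counts in PBS and 66819, 63083 and 67030 counts in LPS libraries. The 3 LPS libraries lay close together and far above the PBS libraries. Its level was 10.2 ± 0.940 normalized CPM in PBS and 1964 ± 29.5 in LPS libraries (SD, n = 3 each), 192.4-fold higher. The log2 fold change was 7.59 (standard error 0.06), the 58th largest of the tested genes, and within batches it was 7.46, 7.61 and 7.69. Per length, Errfi1 stood above 47.6% of the tested genes in PBS and above 99.5% in LPS libraries. Its level per kb was between 4.34-fold and 4.85-fold that of Areg and between 3464-fold and 4076-fold that of Egfr in LPS libraries. In PBS libraries it had been between 24.3-fold and 32.7-fold that of Egfr.

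Ordered by CPM per kb of merged exon, the LPS libraries had Errfi1 (548.4 ± 8.23), Areg (117.9 ± 5.83), Hbegf (9.96 ± 0.290), Ereg (0.357 ± 0.0814), Egfr (0.147 ± 0.0128) and Btc (0.00659 ± 0.00650), with Tgfa at 0 (SD, n = 3 each). No neighbours above Btc in this order had overlapping ranges. In PBS libraries the order was Errfi1 (2.85 ± 0.263), Hbegf (0.303 ± 0.0423), Egfr (0.104 ± 0.00870), Ereg (0.0123 ± 0.00830) and Btc (0.00804 ± 0.00576), with Areg and Tgfa at 0. The ranges of Ereg and Btc overlapped there, and both rest on a few counts.

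Summed over the 7 ligands of EGFR, with Egf and Epgn added to the 5 above, the transcripts made 0.399, 0.448 and 0.438 CPM per kb in PBS and 126.3, 134.5 and 124.0 CPM per kb in LPS libraries. The sum was thus 299.3-fold higher in LPS libraries, and the libraries of each group lay close together. This fold rests on the merged exon length. With the length of the longest coding transcript, Hbegf, the main ligand in PBS libraries, had 20.3 in place of 9.96 CPM per kb in LPS libraries. The fold of the sum was not computed with that length. In PBS libraries Hbegf made up 70.5 ± 7.29% of the sum and Egf 22.9 ± 3.47%. In LPS libraries Areg made up 91.9 ± 0.568%, Hbegf 7.78 ± 0.532% and Ereg 0.280 ± 0.0702% (SD, n = 3 each). The share of Areg was 85.0% when the length of the longest coding transcript replaced that of the merged exons.

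**Figure D2:**
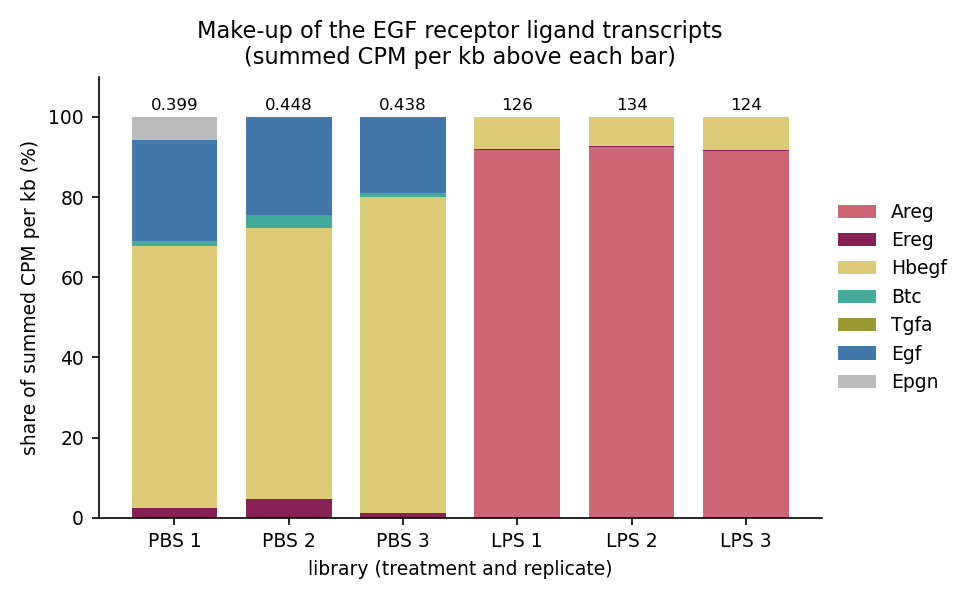
Share of each EGFR ligand in the summed CPM per kb of the 7 ligand genes (vertical axis, percent) in each library (horizontal axis, treatment and replicate), with the sum printed above each bar. Hbegf and Egf made up most of a small sum in the PBS libraries, and Areg made up between 91.4% and 92.5% of a far larger one in the LPS libraries.

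The length of the genes is a property that the choice of the family did not use. Areg spans 8.83 kb, Hbegf 10.88 kb, Errfi1 14.97 kb and Ereg 19.02 kb, against a median of 23.7 kb over the 12146 tested coding genes. Btc spans 45.73 kb, Tgfa 80.50 kb and Egfr 165.96 kb. Of the tested coding genes, 21.4% were shorter than Areg, 26.4% than Hbegf, 35.4% than Errfi1, 42.9% than Ereg, 70.5% than Btc, 83.6% than Tgfa and 94.5% than Egfr. Ereg and Errfi1 thus lay not far below the median. The 3′ UTR of Areg, of 253 bases, held 4 copies of the pentamer ATTTA, which is the core of AU-rich elements that shorten the life of an mRNA. This is 15.81 copies per kb, against a median of 1.21 in tested coding genes, and 0.3% of them had a higher density. The values were 2.89 for Errfi1, 2.75 for Hbegf, 2.57 for Ereg, 1.93 for Btc, 1.90 for Egfr and 1.06 for Tgfa. The number of copies was 4 in Errfi1, Hbegf, Btc and Tgfa as well, 9 in Ereg and 12 in Egfr. The high density of Areg thus comes from its short 3′ UTR and not from more copies. One copy of the nonamer TTATTTATT was found in Areg, Ereg and Tgfa each, and it occurred in 7.1% of the 3′ UTRs examined.

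Areg, Ereg, Epgn and Btc lie in 1 cluster, and beyond Epgn and Mthfd2l stand the genes of CXC chemokines, several of which attract neutrophils. Of the 23 annotated genes within 500 kb of Areg, 11 were tested. By edgeR's quasi-likelihood test, 5 of the 9 that are not members here rose past both thresholds and none fell. Of all tested genes, 10.5% rose and 10.4% fell. Cxcl1, at -248.4 kb, had a log2 fold change of 11.22 (SE 0.07, adjusted p = 7.84e-25), Cxcl2 of 9.97 (adjusted p = 1.82e-24) and Cxcl3 of 9.91 (adjusted p = 5.87e-21). Pf4 (below) and the small ribosomal RNA gene Gm22816, between Cxcl1 and Cxcl2, were the others. Gm22816 had 0 counts in every PBS library and 14, 12 and 28 counts in LPS libraries. Like Cxcl3, with 1, 3 and 2 counts in PBS libraries, it passed the filter through the LPS libraries alone and could only be called upward. Between the chemokine genes and Ereg, Mthfd2l, an enzyme of mitochondrial folate metabolism, reached 0.39 on the log2 scale (SE 0.13, adjusted p = 0.0119). Epgn, the gene of the EGFR ligand epigen, had 2, 0 and 0 counts in PBS and 4, 2 and 0 in LPS libraries. Pf4 was just past the threshold (1.01, adjusted p = 2.81e-11) and was under it in 8 of 15 alternatives. Ppbp (0.01, adjusted p = 0.965), Cxcl5 (0.49, adjusted p = 0.0387) and the small nuclear RNA gene Gm23092 (0.47, adjusted p = 0.251) were not past both thresholds. High and low genes thus alternated along this stretch, and Btc, 263.4 kb on the other side of Areg, was at the floor in every library.

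**Figure D3:**
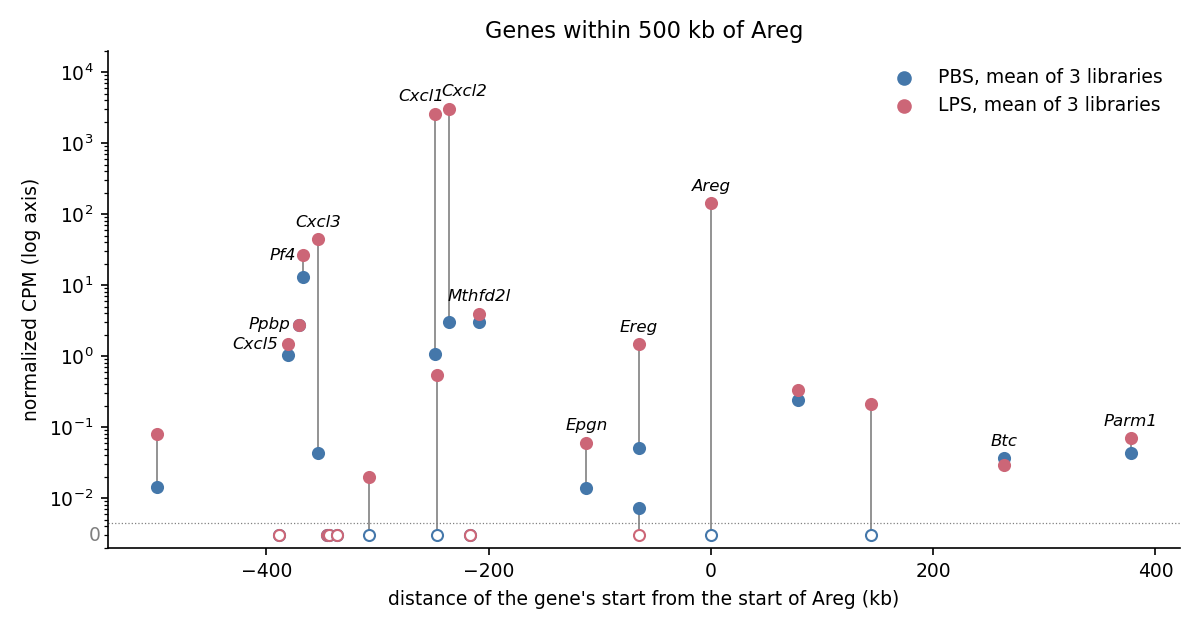
Mean normalized CPM over 3 libraries (log axis, open points for 0 counts) in PBS (blue) and LPS (red) of the 23 genes within 500 kb of Areg, placed by the distance of each gene's start from that of Areg in kb. Among the labelled genes, long vertical lines join the points of Cxcl3, Cxcl1, Cxcl2, Ereg and Areg, while Mthfd2l, Btc and Parm1 in the same stretch have their points close together.

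Genes with the most similar pattern were taken by Euclidean distance in log2 CPM (prior count 2) over the 6 libraries, a measure that the treatment dominates. Nearest to Areg were Sele (distance 0.899), Il6 (2.02), which encodes interleukin 6, and Olr1 (2.17), the receptor of oxidized low-density lipoprotein. Sele had 1, 0 and 0 counts in PBS and 6331, 6186 and 6296 counts in LPS libraries. Nearest to Errfi1 were Socs3 (0.370), an inhibitor of cytokine receptor signalling, Acod1 (1.18), which makes itaconate, and Il10 (1.36), an anti-inflammatory cytokine. Socs3 had 10.3 ± 0.793 CPM in PBS and 1863 ± 65.9 CPM in LPS libraries (SD, n = 3 each). Nearest to Hbegf were Gm20186 (0.764), the potassium channel gene Kcna3 (0.776) and the connexin gene Gja1 (0.887). Ereg had Gm14963, Gm20655 and Gm19241 nearest (0.843 to 0.875), and Egfr had Gm11518, Gm16200 and Rpsa-ps9 (0.229 to 0.234).

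The remaining genes of the pathway were counted in lists of 92 genes, 91 of which had a row and 84 of which were tested. The lists were chosen with earlier results of these data known. Past both thresholds, 10.5% of all tested genes rose and 10.4% fell. Among the other ligands of ErbB receptors, Nrg1 and Nrg4 rose and Egf fell. Nrg1, which encodes neuregulin 1, a ligand of ErbB3 and ErbB4, had 19, 7 and 12 counts in PBS and 423, 404 and 410 counts in LPS libraries. This was a log2 fold change of 5.48 (SE 0.16) with an adjusted p = 1.20e-15. Nrg4, whose product binds ErbB4, had 8, 10 and 5 counts in PBS and 112, 123 and 117 in LPS libraries (4.38 on the log2 scale, SE 0.22, adjusted p = 4.88e-12). Egf had 54, 56 and 43 counts in PBS and 15, 9 and 16 in LPS libraries (-1.46, SE 0.26, adjusted p = 8.30e-05). Nrg1 and Nrg4 passed the filter on low counts through the LPS libraries alone and could only be called upward. Egf passed it through the PBS libraries alone and could only be called downward. In each of these 3 genes the LPS libraries did not overlap the PBS libraries. Such separation is not particular to them, since Lyz2, at 0.06 on the log2 scale, did not overlap either. The share of all tested genes that were so separated is not given here, and nothing is read from this separation. By edgeR's quasi-likelihood test, 10626 of the 15687 tested genes had an adjusted p below 0.05. Nrg2 stood at 0.41 (SE 0.23, adjusted p = 0.132), and Nrg3 had 0 counts throughout.

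Of the other receptors only Erbb3 had enough counts. It had 423, 401 and 429 counts in PBS and 247, 222 and 246 counts in LPS libraries, and its difference of -0.34 (log2, SE 0.08, adjusted p = 0.00103) was not past both thresholds. Erbb2 had 5, 5 and 11 counts in PBS and 3, 6 and 6 in LPS libraries, and Erbb4 had 0 counts in all 6.

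Of 10 tested sheddases and iRhoms, Rhbdf2 rose and none fell (all tested genes: 10.5% and 10.4%). Rhbdf2 encodes iRhom2, the partner that ADAM17 needs to mature in macrophages, and it had 2256, 2140 and 2039 counts in PBS and 5234, 4953 and 4884 in LPS libraries (1.70 on the log2 scale, SE 0.04, adjusted p = 7.74e-17). Adam17 itself had 428.9 normalized CPM in PBS and 604.0 in LPS libraries (0.49 on the log2 scale, SE 0.03, adjusted p = 1.36e-10).

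Of 14 tested feedback inhibitors of receptor tyrosine kinases other than Errfi1, 5 rose and 2 fell past both thresholds (all tested genes: 10.5% and 10.4%). The Sprouty genes Spry1 (5.39), Spry4 (3.32) and Spry2 (1.79) and the Sprouty-related genes Spred2 (2.76) and Spred1 (1.26), which restrain Ras and MAP kinase signalling, rose, with adjusted p between 7.95e-18 for Spred2 and 1.31e-08 for Spry4. Spry1 had 4, 6 and 5 counts in PBS and 169, 160 and 137 counts in LPS libraries. Spry4 had 6, 13 and 9 counts in PBS libraries. Spry1 and Spry4 passed the filter on low counts through the LPS libraries alone and could only be called upward. Dusp6, a MAP kinase phosphatase, fell by 1.67 on the log2 scale (adjusted p = 2.43e-15) and Lrig2 fell by 1.13 (adjusted p = 7.59e-13). The list thus held inhibitors that moved in both directions.

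Of 27 signal transducers of EGFR, 5 rose, none fell and 22 did not pass both thresholds (all tested genes: 10.5% rose, 10.4% fell). The median log2 fold change of the 27 was 0.18. Among those that rose were the docking protein gene Gab1 (2.01, adjusted p = 1.71e-17), the kinase subunit genes Pik3r1 (1.37) and Pik3cb (1.11) and the transcription factor gene Stat5a (1.22). With scaling by library size alone, Pik3r1 (0.96), Pik3cb (0.71), Stat5a (0.82) and, of the inhibitors, Spred1 (0.86) were no longer past the threshold on the fold change.

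Of 15 immediate early genes that growth factors are known to induce, 13 rose and none fell (all tested genes: 10.5% and 10.4%). The median log2 fold change of the 15 was 3.58. These genes also respond to LPS through its own receptor, and what part ligands of EGFR had in them was not tested. The largest values were those of Fosb (9.30), Dusp5 (7.44) and Dusp1 (6.51), followed by Ier3 (4.22), Junb and Egr3 (3.82), with adjusted p between 4.99e-24 for Dusp1 and 1.41e-18 for Egr3. Jun (-0.18, adjusted p = 5.54e-04) and Srf (0.61, adjusted p = 7.57e-08) were not past both thresholds. Fosl1, among the 13 that rose, had 7, 4 and 4 counts in PBS libraries. It passed the filter on low counts through the LPS libraries alone and could only be called upward.

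Prostaglandin E2 raises cAMP in macrophages, and genes of that route are listed because cAMP is a known inducer of Areg. Of 13, 8 rose and none fell past both thresholds (all tested genes: 10.5% and 10.4%). Ptgs2, the inducible cyclooxygenase, had a log2 fold change of 12.11 and the prostaglandin E2 receptor gene Ptger4 of 2.08 (adjusted p = 4.35e-19). The CREB-regulated genes Nr4a3 (9.50), Nr4a2 (8.35), Nr4a1 (7.33) and Crem (3.70) rose with adjusted p between 2.59e-24 for Nr4a3 and 1.06e-20 for Crem. Nr4a2, with 14, 16 and 8 counts in PBS libraries, passed the filter on low counts through the LPS libraries alone and could only be called upward. Creb1, the factor that binds the CRE, had a log2 fold change of 0.76 (adjusted p = 6.85e-12) and was not past both thresholds. Neither prostaglandin E2 nor cAMP was measured, and what part this route had in the rise of Areg or of these genes was not tested.

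**Figure D4:**
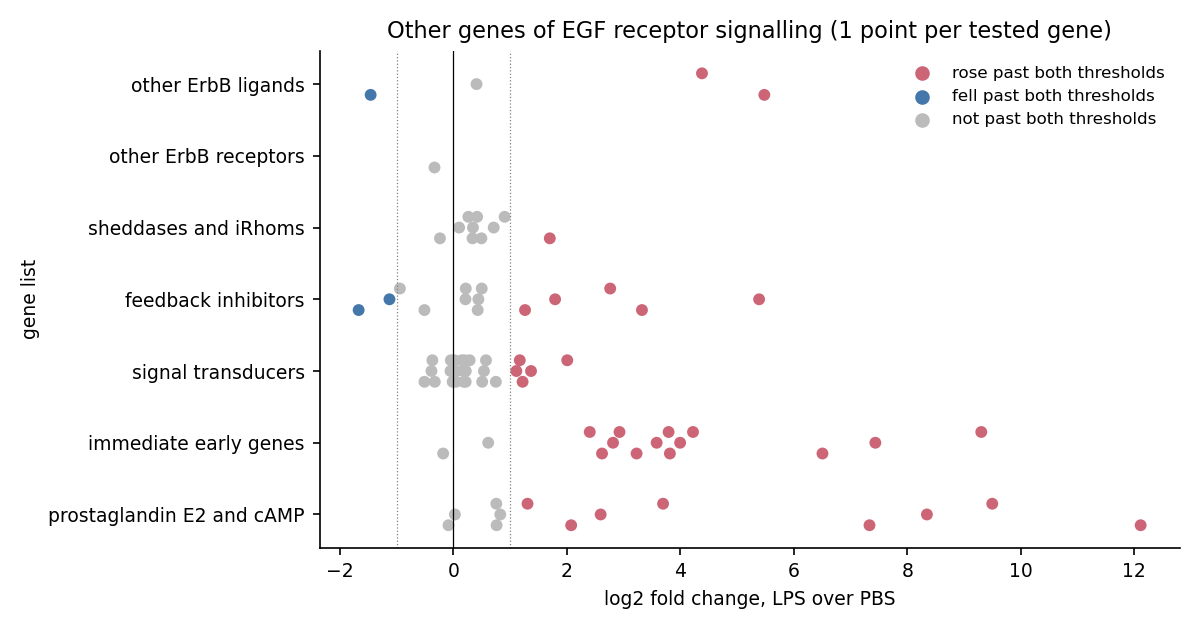
Log2 fold change of LPS over PBS (horizontal axis) for the tested genes of the 7 lists (vertical axis), 1 point per gene, in red where it rose and in blue where it fell past both thresholds and in grey otherwise, with dotted lines at -1 and 1. The immediate early and prostaglandin lists lie mostly to the right of 1, and the 27 signal transducers lie mostly between the dotted lines.

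Markers of cells other than macrophages were counted because mast cells, basophils, lymphoid and epithelial cells are known sources of these ligands. The 8 mast cell and basophil markers summed to between 1.97 and 2.37 normalized CPM in PBS and between 17.0 and 17.5 in LPS libraries. Mcpt4 and Tpsb2 were at 0 in every library, and Hdc and Gata2 rose past both thresholds, with 9.02 and 6.34 CPM in LPS libraries. Of 7 epithelial markers, 6 had at most 3 counts in every library, Krt8 and Cldn4 were at 0, and the sum was 0.244 to 0.303 CPM in PBS and 0.617 to 0.864 CPM in LPS libraries, with Cdh1 past both thresholds. The dendritic cell markers summed to between 5.22 and 6.63 CPM in PBS and between 13.6 and 13.8 in LPS libraries. Past both thresholds, 5 of these 7 rose, against 10.5% of all tested genes. Gata2, Cdh1 and the dendritic cell markers Xcr1 and Cd209a passed the filter on low counts through the LPS libraries alone and could only be called upward. Most of the sum of the T cell and innate lymphoid list (143.2 to 155.4 and 226.8 to 236.1 CPM) was Il7r. Of its 8 genes only Il7r and Trbc2 had enough counts to be tested, and neither passed both thresholds. The sums were 56.9 to 59.3 and 67.4 to 70.2 CPM for 8 neutrophil markers, 3.06 to 3.47 and 3.25 to 3.90 for 6 B cell markers, 153.4 to 160.6 and 205.4 to 213.2 for 7 endothelial markers, and 15.3 to 16.6 and 18.4 to 21.4 for 8 fibroblast markers. Most of the endothelial sum was Vwf (119.4 CPM in PBS and 162.3 in LPS libraries) and Kdr (34.7 and 41.1). One endothelial marker (Cdh5) and 1 fibroblast marker (Pdgfrb) rose and 1 fibroblast marker (Postn) fell. Postn passed the filter through the PBS libraries alone and could only be called downward. The part of such cells in the rise of the ligands was not tested.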

How the data were processed

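The authors sequenced total RNA (TruSeq Stranded Total RNA kit, paired-end reads of 101 bp), aligned the reads to GRCm38 with HISAT2 2.1.0, handled the alignments with SAMtools 1.17 and counted reads per gene with featureCounts 2.0.0. The values deposited by the authors are these counts, without normalization. The annotation release, the strand setting and the handling of reads with several matches are not given in the sources used here, so counts of overlapping genes are uncertain. Of 55335 identifiers, 55154 matched GENCODE M21 (GRCm38) without their version and 54587 with it. No pair of same-group libraries differed by as little as sampling noise (chi-square per gene between 5.44 and 20.5), so none was merged as a library deposited more than once.

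LPS and PBS were compared in R 4.3.3 with edgeR 4.0.16 (default filterByExpr, TMM, quasi-likelihood test, Benjamini-Hochberg adjustment over all tested genes). A gene was past both thresholds with its adjusted p below 0.05 and its log2 fold change beyond 1 in either direction, the limits the study used with DESeq2. Standard errors were derived from the F statistic. Values per length use the merged exons of M21. Functions were tested on simulated counts.

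The labels give same-numbered libraries of both groups the same batch number, so the numbers pair the samples. Across genes, the departures from the group mean correlated by -0.0143, 0.0822 and 0.0380 within these pairs. A fit blocked on the replicate number was an alternative, as were DESeq2 1.42.0, limma 3.58.1 (voom), other scalings and filters, leaving out the 10 highest genes and leaving out each library.

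The members and lists were chosen with earlier results of these data known. Named were the 7 members, listed genes past both thresholds (at most 6 per list), the other ligands and receptors, the 3 nearest genes to each member with a mean of at least 10 counts, and genes within 500 kb of Areg with that mean. Adam17, Creb1, Jun, Srf, Fosl1, Csf3, Il1b, Gm19610, Gm22816 and the marker genes were named outside this rule, after their values were seen. Some listed genes are not reported here by name. Motifs came from RefSeq windows (GRCm38.p6).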

Additional observations from a re-analysis of the deposited data

How the results depend on the processing

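The direction of LPS against PBS did not change for any of the 5 tested members in any of the 15 alternatives in which they were tested. For Areg, Ereg, Hbegf and Errfi1 the difference was too large for any of these alternatives to reverse, so this is no support for their rise. For Egfr the log2 fold change ranged from 0.10 with library size alone to 0.57 without PBS replicate 2. With library size alone, the log2 fold changes were 15.26 for Areg, 7.18 for Errfi1, 4.64 for Hbegf and 0.10 for Egfr, the levels in LPS libraries 102.4 (Areg), 476.7 (Errfi1), 8.66 (Hbegf) and 0.128 (Egfr) CPM per kb, and 2964 genes fell past both thresholds. With upper quartile scaling the log2 fold changes were 15.40 for Areg, 7.44 for Errfi1 and 0.36 for Egfr. Areg was at 15.16 with DESeq2's test and 13.69 with limma voom. Requiring 10 counts in every library removed Areg and Ereg, so that 2 members and 1027 falling genes were past both thresholds. With the length of the longest coding transcript, the levels in LPS libraries were 645.6 (Errfi1), 20.3 (Hbegf) and 0.163 (Egfr) CPM per kb, and Areg made up 85.0% of the ligand sum. Leaving out each library gave log2 fold changes from 15.42 to 15.55 for Areg and from 4.44 to 5.39 for Ereg. With the replicate number as a block, which pairs the samples by batch, Areg was at 15.48, Errfi1 at 7.59 and Egfr at 0.51, and the call of no pathway gene changed. Of 84 tested pathway genes, 76 had the same call in all alternatives and 7 changed it with library size alone. The counts of 34 rising and 3 falling pathway genes stayed within 1.5 times. With 10 counts required in every library they were 28 and 2. The alternatives for the neighbours of Areg were chosen after seeing the data. Depth limits Btc, Tgfa, Epgn, Erbb2 and Erbb4, in which a change could not be measured.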
